A study of Saccharomyces cerevisiae with 2 samples.

Results

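The genes described here encode the proteins of the cytosolic ribosome of budding yeast. They were chosen by name from the R64 annotation: nuclear genes whose symbol is RPL or RPS followed by a number, together with RPP0, RPP1A, RPP1B, RPP2A and RPP2B. This gave 137 of 6431 nuclear genes, of which 81 encode proteins of the large subunit (76 RPL and 5 RPP genes) and 56 proteins of the small subunit. The rule uses names and no measured value. The signal of a gene is the mean over the probes inside it and within 2 kb of either end, 13 to 22 probes for these genes.

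The study mapped DNA double strand breaks in the strain WFA73, whose genotype is given as mec1, the gene for the checkpoint kinase that guards stalled replication forks. Broken ends were labelled in agarose-embedded DNA by end repair with dye-bearing nucleotides. Cells held in G1 by alpha factor entered S phase in 200 mM hydroxyurea, which depletes nucleotides; after 1 h the drug was filtered away and a recovery of 1 h followed. One recovery culture had no addition and the other had 0.8 micromolar BPS, an iron chelator, and each was set on its own 2-colour array against G1 DNA of the same strain. The study asked whether the chelator, present during recovery, altered where breaks lie.

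A ribosome is built from a small subunit, which reads the messenger RNA, and a large subunit, which joins amino acids. Most of its proteins in yeast are encoded by a pair of genes, called A and B, left by an old duplication of the genome. The products of most pairs are nearly or fully identical. In growing cells these genes are among the most heavily transcribed by RNA polymerase II, mostly under the control of the promoter-binding protein Rap1 with its partners Fhl1 and Ifh1, and many of them carry introns. Transcription of this kind is known as an obstacle that replication forks meet.

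There was 1 array without and 1 array with BPS, so differences could not be checked against replicates and no test was made. The arrays carried 41480 probes over 16 chromosomes. A level is the log2 ratio to G1 DNA after subtraction of the median over all probes of that array. The total amount of breakage is not on this scale, and extra copies of replicated DNA are not separated from broken ends. The standard error (SE) of a gene is over its probes and covers scatter within the arrays only. Which DNA stands in the numerator is not stated, and recovery over G1 was assumed. If it ran the other way, every sign below would turn. Positions are those the authors deposited for the probes, on an unnamed genome build.

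The neighbourhoods of ribosomal protein genes lay above the genome median more often than genes at large, on both arrays. The median level of the 137 genes was 0.27 without and 0.15 with BPS, where the 6378 nuclear genes with a probe had −0.003 and −0.01. Without BPS 92 of the 137 (67.2%) were above the genome median, against 49.8% of all genes, and with BPS 82 (59.9%) were, against 49.4%. The spread within the group was wider than this shift. Its levels ran from −1.23 to 1.44 without and from −1.20 to 1.60 with BPS, and 72 genes were above the median on both arrays while 35 were below it on both. Low levels were less frequent than among all genes: 12 genes (8.76%) were below −0.5 without BPS, against 24.8%, and 17 (12.4%) with BPS, against 27%. At the extremes, 4 genes (2.92%) exceeded 1 on both arrays, against 3.31% of all genes, and 1 (0.73%) was below −1 on both, against 2.05%. The share above the genome median was not raised alike in all parts of the group. Of the 19 genes with no A or B partner, 10 (52.6%) were above it without and 9 (47.4%) with BPS. That is near the share of all genes, and their medians were 0.09 and −0.005. For the A copies the shares were 62.7% and 54.2%, and for the B copies 76.3% and 69.5%.

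**Figure D1:**
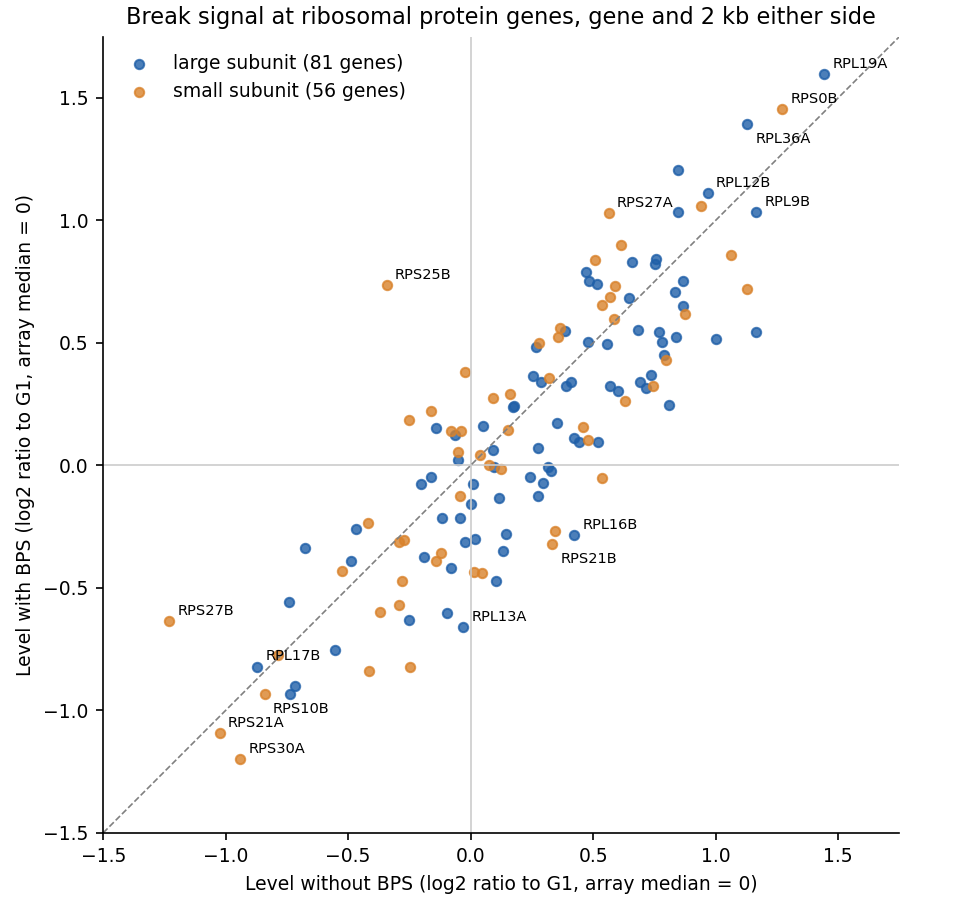
Level of each of the 137 ribosomal protein genes (log2 ratio to G1, mean over the probes of the gene and 2 kb either side) without BPS on the x axis and with BPS on the y axis, coloured by subunit. The dashed line marks equal levels. Most points lie near that line, RPL19A is highest at 1.44 and 1.60, and RPS25B stands farthest above the line at −0.34 and 0.74.

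The genes highest on the mean of both arrays belong to different parts of the ribosome. RPL19A, for a protein of the large subunit near the exit of the peptide tunnel, had 1.44 ± 0.11 without and 1.60 ± 0.11 with BPS (SE, 18 probes, chromosome II, 412.4 to 417.2 kb). It was the highest gene of the group on each array. RPS0B, for a small-subunit protein at the back of the particle, had 1.27 ± 0.11 and 1.45 ± 0.12 (20 probes, chromosome XII, 240.3 to 245.2 kb). RPL36A had 1.13 and 1.39 on XIII. RPL9B had 1.16 and 1.04 on XIV. RPL12B, whose product lies at the base of the stalk, had 0.97 and 1.11 on IV. These 5 were high on each array, and their differences between the arrays were at most 0.26. For 3 of these genes the sign of the small difference depended on scale, since after quantile normalization it was −0.16 at RPL19A, −0.09 at RPS0B and −0.04 at RPL12B.

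Of the 5 lowest genes, 4 encode small-subunit proteins. RPS30A, which encodes a fusion of a ubiquitin-like peptide and a ribosomal protein in mammals but the ribosomal protein alone in yeast, had −0.94 ± 0.08 without and −1.20 ± 0.09 with BPS (17 probes, chromosome XII, 710.6 to 715.1 kb). RPS21A had −1.02 and −1.09 on XI. RPS27B, for a zinc-binding protein, had −1.23 and −0.63 on VIII. RPS10B, for a protein of the small subunit's beak, had −0.84 and −0.93 on XIII, and RPL17B, the only one of these 5 from the large subunit, had −0.87 and −0.82 on X. All 5 were below the genome median on both arrays.

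The elevation was not limited to the genes themselves. In the 2 kb on either side of the gene, with the gene left out, the median was 0.27 without and 0.16 with BPS. Between 2 and 5 kb away it was 0.26 and 0.25, between 5 and 10 kb 0.16 and 0.19, between 10 and 20 kb 0.08 and 0.03, and between 20 and 40 kb −0.02 and −0.02. For all genes the same distances gave medians between −0.004 and 0.05 without BPS and between −0.02 and 0.07 with it. The medians of the ribosomal protein genes were thus above those of all genes out to 10 kb on both arrays. Between 5 and 10 kb away, 69.3% of them were above the genome median without and 65.7% with BPS. For all genes these shares were 54.0% and 53.4%. A part of the group thus had no such elevation. Neighbouring windows share domains of the chromosome, so the genes are not independent of their surroundings.

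Regions around centromeres were also high: all 551 genes within 30 kb of one had medians of 0.42 without and 0.34 with BPS. Few ribosomal protein genes lay there. Only 5 of the 137 (3.65%) were within 30 kb of a centromere, against 8.64% of all genes. Those 5 had medians of 0.42 without and 0.14 with BPS. The 10 ribosomal protein genes 30 to 60 kb away had −0.05 and −0.10, where all 522 genes there had −0.09 and −0.07. The 34 that lay 60 to 150 kb away had 0.10 and 0.07, where all 1462 genes there had −0.05 and −0.07. The 88 genes more than 150 kb away had medians of 0.32 without and 0.24 with BPS, where all 3843 genes that far away had −0.06 on both arrays. Medians above those of all genes on both arrays were thus found beyond 60 kb only. Near chromosome ends lay 1 gene, RPS4A (0.08 and 0.003), within 30 kb of the last probe. After each array was centred on the median of every chromosome, the medians of the group were 0.29 and 0.11.

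The large subunit had the higher median without BPS. The median over its 81 genes was 0.32 without and 0.16 with BPS, and over the 56 genes of the small subunit it was 0.08 and 0.14. Without BPS 60 large-subunit genes (74.1%) and 32 small-subunit genes (57.1%) were above the genome median. With BPS the counts were 49 (60.5%) and 33 (58.9%). The subunits thus differed by 0.23 in median level without BPS and by 0.02 with it. Their ranges overlapped almost wholly, from −0.87 to 1.44 and from −1.23 to 1.27 without BPS, and genes are not replicates of a condition, so this is a description of the arrays. The sign with BPS was not stable: the large minus small value ran from −0.11 to 0.11 over the alternative settings, and from 0.20 to 0.34 without BPS.

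In the large subunit, the genes for the stalk that recruits translation factors had lower signal with BPS in 4 of 5 cases, against 55.3% of all genes. RPP2B had 1.00 ± 0.17 without and 0.51 ± 0.12 with BPS (15 probes). RPP1A had 0.10 and −0.47, and RPP2A had −0.25 and −0.63. RPP1B had 0.33 and −0.02, but with the widest SE of the difference of all members, 0.25. A single probe at −4.11 carried much of it: the difference of −0.35 became −0.13 without that probe. The exception was RPP0, the base of the stalk, with −0.14 and 0.15. The median difference over the 5 genes was −0.38, where over all genes it was −0.05. The stalk genes share no probes with each other. RPP1A shares probes with RPL13A and RPS16B, and RPP2A with RPS15, so its value is not separate from those of such neighbours.

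The genes for proteins that line or surround the peptide exit tunnel ranged widely. Of these 14, which are the RPL4, RPL17, RPL19, RPL26, RPL31 and RPL35 pairs with RPL25 and RPL39, 11 (78.6%) were above the genome median without and 9 (64.3%) with BPS. For the 137 genes these shares were 67.2% and 59.9%, and for all genes 49.8% and 49.4%. Besides RPL19A, RPL4B had 0.85 and 1.04, and RPL31B had 0.76 and 0.84. The difference between the arrays had a median of −0.01, with 7 genes higher and 7 lower with BPS. RPL31A (0.84 and 0.52) and RPL35A (0.30 and −0.07) were among the lower. Near the catalytic centre, RPL3 was high and higher with BPS, at 0.84 ± 0.11 and 1.21 ± 0.15 (18 probes). Its difference of 0.36 ± 0.08 depended on scale and was 0.18 after quantile normalization. RPL10, a protein that joins the particle last in the cytoplasm, had −0.08 and −0.42. RPL2A had 0.48 and 0.50, and RPL2B had −0.06 and 0.13. RPL5 and the RPL11 genes, whose products enter the particle together with the small rRNA of the large subunit, had levels of 0.27 and 0.48 at RPL5, 0.01 and −0.08 at RPL11A, 0.27 and 0.07 at RPL11B.

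In the small subunit, the 6 genes for proteins of the decoding centre and the messenger RNA entry included RPS30A and also one of the high genes. RPS30B, the copy of the lowest gene, had 1.13 ± 0.11 without and 0.72 ± 0.16 with BPS. RPS2, for a protein at the entry of the messenger RNA channel, had 0.54 ± 0.14 and −0.05 ± 0.14, while RPS3, beside it in the ribosome, had −0.37 and −0.60. RPS23A, for a protein needed for accurate decoding, had −0.02 and 0.38, and its copy RPS23B had −0.05 and 0.06. Among the 9 genes of the messenger RNA exit and platform, RPS28B had −0.25 and 0.18, and RPS26A had −0.42 and −0.84. RPS1B (0.59 and 0.73) and RPS1A (0.63 and 0.26) had similar levels without BPS only. The beak genes RPS10A and RPS12 had 0.09 and 0.28, and 0.12 and −0.01. The 3 genes that encode ubiquitin fused to a ribosomal protein were of both kinds, with 0.60 and 0.30 at RPL40A, 0.26 and 0.36 at RPL40B and −0.12 and −0.36 at RPS31.

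The difference between the recoveries was small for most of these genes. The median with minus without BPS was −0.09, against −0.05 for all genes. Of the 137 genes 80 (58.4%) were lower with BPS, near the 55.3% of all genes. Differences past 0.5 log2 units, a fold of about 1.4, leaned to the lower side. There were 10 genes lower by more than that (7.30%, against 4.84% of all genes) and 2 genes higher (1.46%, against 7.59%). Of the lower genes, RPL13A, RPS16B and RPP1A share probes with each other, so the 10 are not separate places. Among the 111 members that share no probes with another member, 6 were lower and 2 higher by more than 0.5. Of the 10 lower genes the large subunit had 6 (7.41% of its genes) and the small subunit 4 (7.14%), so these shares were alike. The 2 higher genes were both in the small subunit (3.57% of its genes).

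**Figure D2:**
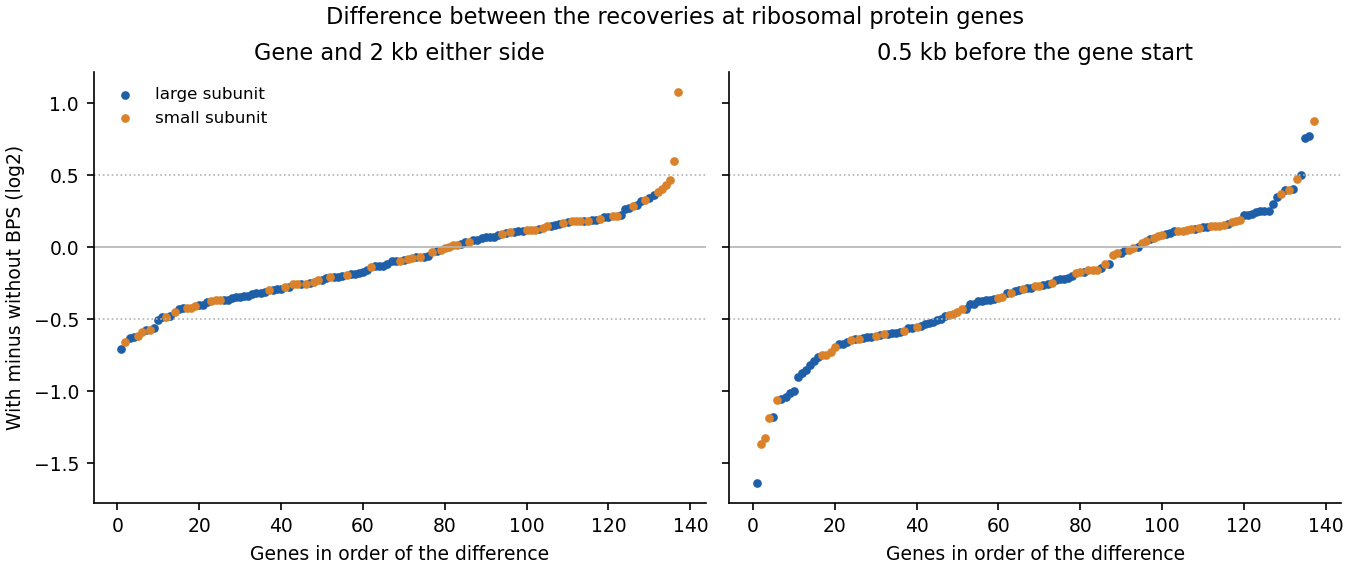
Difference with minus without BPS (log2) of the 137 genes in rising order, over the gene and 2 kb either side on the left and over the 0.5 kb before the gene start on the right, coloured by subunit, with dotted lines at 0.5 and −0.5. On the left 10 genes lie below −0.5 and 2 above 0.5; on the right 46 lie below and 4 above.

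RPS25B had by far the highest difference. The level was −0.34 ± 0.09 on the array without BPS and 0.74 ± 0.24 on the other, which differ by 1.08 ± 0.20 or 2.11-fold (17 probes, chromosome XII, 793.9 to 797.9 kb). Of its 17 probes 15 were higher with BPS, 9 of them by more than 1 log2 unit, and the probe differences ran from −0.51 to 2.40. Higher signal with BPS went on beyond the window before the start, with −0.70 without and 1.73 with BPS at −3.2 kb. At 2.4 kb after the start, just outside the window, the values were −0.96 and −1.39. RPS27B came next among the 137 genes with 0.60 ± 0.16, from −1.23 to −0.63, so it was low on both arrays. Its copy RPS27A had 0.47 ± 0.11, from 0.56 to 1.03. RPS28B had 0.44 ± 0.08. RPS23A had 0.40 ± 0.10. All 5 genes encode small-subunit proteins, and only RPS25B moved from well below to well above the genome median.

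In the 5 genes with the most negative differences nearly all probes were lower with BPS, by unequal amounts. RPL16B, for a protein of the large subunit's surface, had 0.42 ± 0.14 on the array without BPS and −0.29 ± 0.16 on the other, which differ by −0.71 ± 0.07, or 1.63-fold lower with BPS (chromosome XIV, 492.1 to 496.9 kb). All 18 of its probes were lower with BPS. RPS21B had 0.33 and −0.32, with 17 of 18 probes lower. RPL13A had −0.03 and −0.66, with 18 of 18 lower. RPL23A, for a protein at the interface of the subunits, had 1.17 and 0.54, with 15 of 15 lower. RPS18B had 0.34 and −0.27, with 18 of 18 lower. RPL23A differed from the others in that it stayed above the genome median with BPS. The remaining genes past −0.5 were RPS2 (−0.59), RPP1A (−0.58), RPS16B (−0.57), RPL43B (−0.56) and RPL34A (−0.51). After quantile normalization all 10 were still lower with BPS, though RPS16B (−0.49) and RPL34A (−0.46) no longer passed −0.5. Without the probe farthest from the mean of the gene, RPL34A had −0.45 and the other 9 stayed past −0.5.

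**Figure D3:**
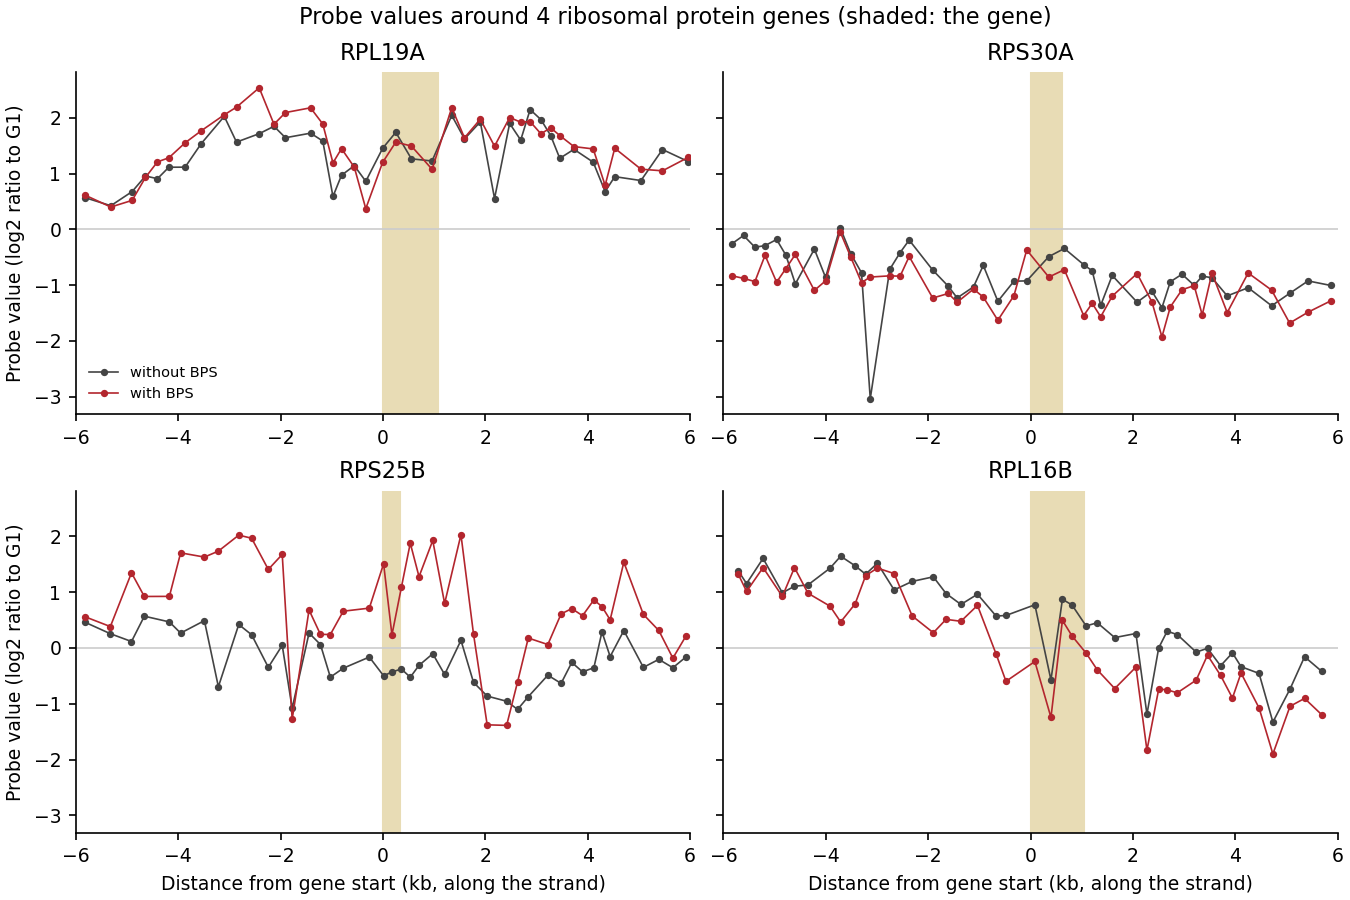
Probe values (log2 ratio to G1, array median at 0) within 6 kb of the start of 4 genes, along the strand of each gene, without BPS in grey and with BPS in red; the shaded band is the gene. RPL19A lies in a hill and RPS30A in a valley on both arrays, RPS25B is higher with BPS at 15 of the 17 probes in its window, and RPL16B is lower at all 18.

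The difference was most negative just before the gene starts. In bins of 0.5 kb along the strand, the median difference of the ribosomal protein genes was −0.11 between 3 and 2.5 kb before the start. It was −0.20 between 1 and 0.5 kb before it, −0.27 in the last 0.5 kb, −0.20 in the 0.5 kb after the start and −0.01 between 1 and 1.5 kb after it. All protein-coding genes had a dip at the same place, of −0.10, less deep than that of the ribosomal protein genes. The levels of each array show the dip on the array with BPS. Without BPS the medians of the ribosomal protein genes were flat across the start, between 0.19 and 0.26 in the bins from 1.5 kb before to 1 kb after it. With BPS they went from 0.10 to −0.04 and −0.16 in the 3 bins before the start, and back to 0.12 and 0.25 after it. The last 0.5 kb before the start was thus the only one of these 12 bins in which these genes, with BPS, were as low as protein-coding genes at large (−0.13).

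**Figure D4:**
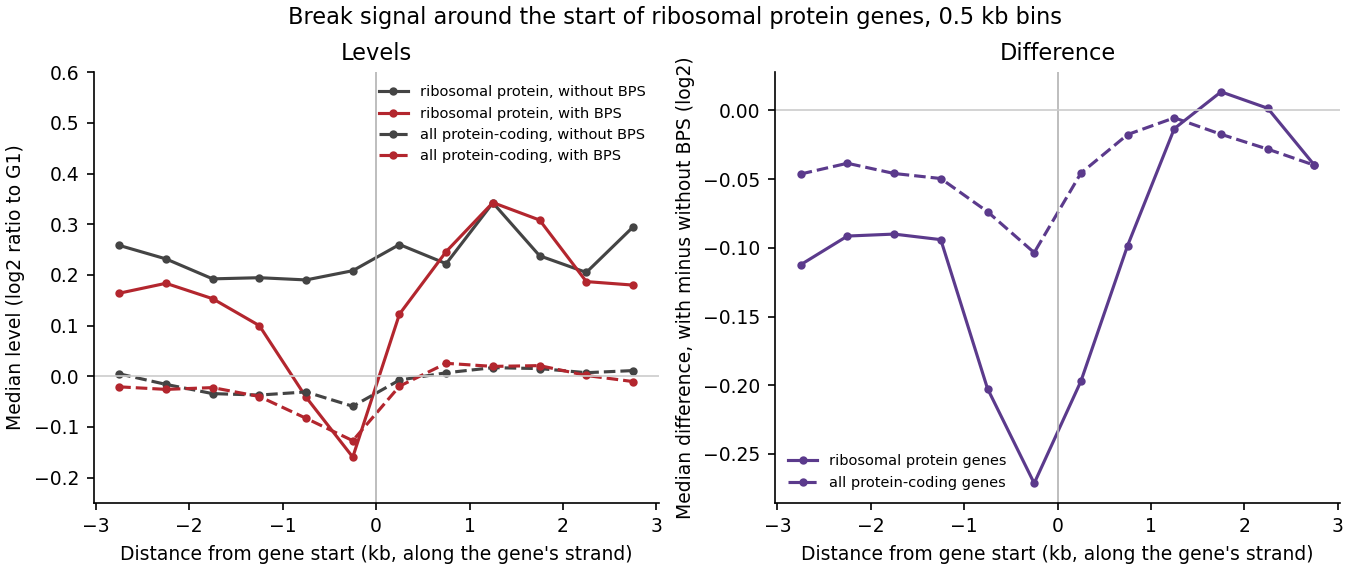
Medians in 0.5 kb bins of distance from the gene start, along the strand, for the ribosomal protein genes (solid, 132 to 137 genes per bin) and all protein-coding genes (dashed); levels on the left and the difference with minus without BPS on the right. With BPS the ribosomal protein genes have a dip to −0.16 before the start, and the difference there is −0.27 against −0.10 for all protein-coding genes.

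In that last 0.5 kb, 93 of the 137 genes (67.9%) were lower with BPS, against 58.3% of all protein-coding genes. Of all 137 genes, 46 (33.6%) were lower by more than 0.5, against 18% of protein-coding genes. Higher by as much were 4 (2.92%), against 11.1%. Each gene has 1 to 3 probes there, so single values are noisy. The most negative was RPL13A, from 0.37 to −1.27 on 1 probe. RPS16B, its divergent neighbour, had 0.22 and −1.15. The RPL13A probe also lies within 2 kb of RPS16B, so these genes are not separate places. Members that share probes were not left out for this bin. RPS18B had 0.60 and −0.72, and RPS6A had 0.65 and −0.54, each on 2 probes. RPL23A went from 1.52 to 0.48. The 4 genes higher by more than 0.5 were RPS25B (0.88), RPL36B (0.77), RPL36A (0.76) and RPL9A (0.50), chosen here after their values were seen. The median difference in this bin was −0.36 for the large and −0.16 for the small subunit. Of the 14 exit tunnel genes 13 were lower. Their median of −0.29 and the 35.7% lower by more than 0.5 were near the values of the whole group. Of RPL5 and the RPL11 genes 1 of 3 was lower, and of the genes near the catalytic centre 2 of 4.

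The levels of the A and B copies, which in most pairs encode nearly the same protein, had almost no linear relation. Over the 59 pairs, Pearson's r between the A and the B copy was 0.11 without and 0.08 with BPS, a description across pairs that share the arrays. The median absolute A minus B value was 0.33 without and 0.59 with BPS, and it reached 2.07 and 1.92. The order within a pair was mostly the same on both arrays, in 49 of 59 pairs. The B copy was the higher one in 37 pairs without and in 41 with BPS. In 34 pairs it was so on both arrays, and in 15 the A copy was. The medians were 0.13 for the A and 0.35 for the B copies without BPS, and 0.04 and 0.34 with it. The B copy was ahead in both subunits, in 24 of 35 large-subunit and 17 of 24 small-subunit pairs with BPS. In 5 pairs both copies lie on the same chromosome.

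**Figure D5:**
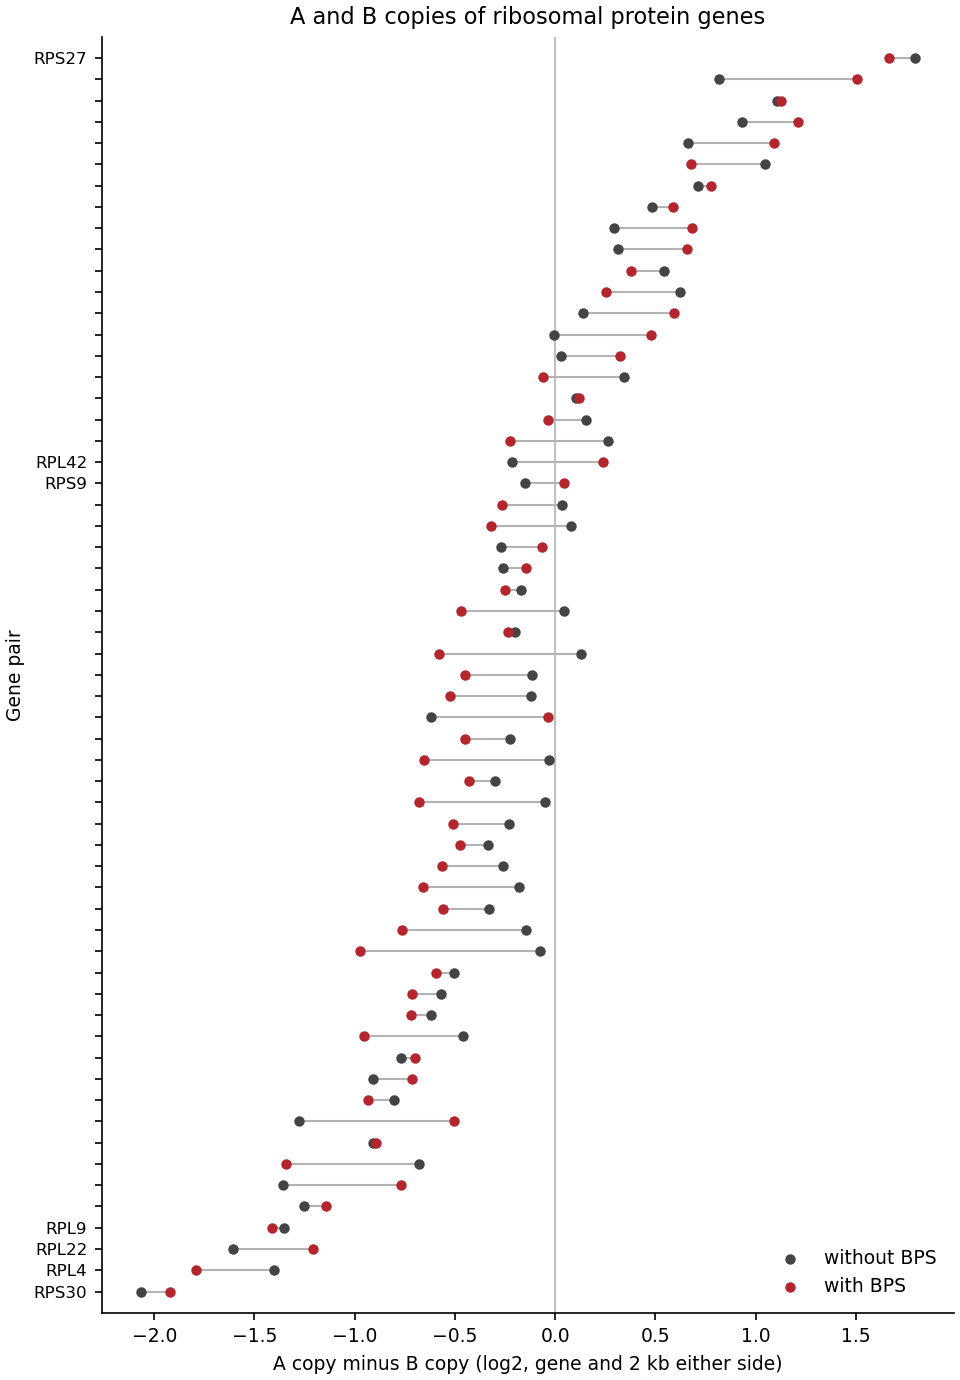
Level of the A copy minus that of the B copy (log2, gene and 2 kb either side) for the 59 pairs, of which 7 are labelled, ordered by the mean of both arrays, without BPS in grey and with BPS in red. RPS30 lies farthest to the B side at −2.07 and −1.92 and RPS27 farthest to the A side at 1.80 and 1.66; 10 pairs have a grey and a red point on different sides of 0.

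The 5 largest contrasts, picked on the mean of both arrays, were alike on each array, which such a choice favours. RPS30A was lower than RPS30B by 2.07 without and by 1.92 with BPS, which sets the lowest of all members on the mean of both arrays against one above 1 without BPS. RPS27A was above RPS27B by 1.80 and 1.66. RPL4A (−0.55 and −0.76), for a protein that reaches into the exit tunnel, was far below RPL4B. RPL22A (−0.74 and −0.56) was far below RPL22B (0.87 and 0.65), and RPL9A (−0.19 and −0.38) was far below RPL9B. Each of these 5 contrasts exceeded 1 log2 unit on both arrays. At the other end, the RPL42 and RPS9 copies were among the most alike on the mean of both arrays. RPL42A had 0.47 and 0.79 against 0.68 and 0.55 for RPL42B. The order of these copies turned between the arrays, so the small mean contrast hides A minus B values of −0.21 without and 0.24 with BPS. RPS9A (−0.14 and −0.39) and RPS9B (0.01 and −0.43) differed by 0.15 or less on each array.

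With BPS, both copies were lower in 22 pairs, both were higher in 12 and 1 was higher and the other lower in 25. The difference with minus without BPS was above that of the partner for the B copy in 34 pairs and for the A copy in 25. The median absolute contrast between the copies in this difference was 0.30 and the largest 0.90, at RPS25, where RPS25A had −0.42 and −0.23.

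Some duplicated genes kept a ribosomal neighbour in both copies, which lets whole blocks be compared. RPL13 and RPS16 are neighbours on XIII and IV. On XIII, RPL13B (0.65 and 0.68) and RPS16A (0.57 and 0.69) were high on both arrays. On IV, RPL13A and RPS16B (−0.25 and −0.82), with RPP1A beside them, were among the genes with the most negative differences. RPL21 and RPS9 are neighbours on II and XVI, and there the blocks were alike: RPL21A had 0.13 and −0.35 on II, and RPL21B had −0.02 and −0.31 on XVI. In each block the neighbours, which share probes, went together, while the copies of the block differed in level for RPL13 with RPS16 and were close for RPL21 with RPS9. In all, 26 members share probes with another member, in 16 overlaps.

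Closely placed genes could also differ. RPL16B, at −0.29 with BPS, and RPL9B, at 1.04, lie on XIV with adjoining windows, the one ending at 496.9 kb and the other starting at 498.0 kb. RPS17B (0.61 and 0.90) and RPS18A (−0.27 and −0.31) have adjoining windows on IV. On XIII the other copies, RPS17A (0.74 and 0.32) and RPS18B, share probes, and both were lower with BPS.

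By chromosome, the members were highest without BPS on II, with 0.61 as the median of 10 genes, and lowest on VII, where 14 had −0.12. Lower signal with BPS was most frequent on XIV (6 of 7 genes), V (5 of 6), XV (10 of 13), XVI (8 of 11) and II (7 of 10), against 55.3% of all genes of the genome. The median over all probes of the chromosome also went down on XIV (−0.05 to −0.13), II (0.15 to 0.09) and XVI (0.09 to 0.06). On V and XV it was 0.06 and 0.05 on both arrays. On VII (8 of 14) and XII (10 of 18) more genes were higher with BPS. Chromosome I has none of these genes, and III has only RPS14A (0.16 and 0.29).

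Related genes were described in the same way from lists by function, and the shares of all genes to set beside them are 49.8% above the genome median without and 49.4% with BPS. Of 13 genes for transcription factors and regulators of ribosomal protein genes, 6 were above the genome median without and 4 with BPS, with medians of −0.05 and −0.27. The most negative difference was at CRF1, a corepressor (0.23 and −0.38), and the most positive at ABF1 (−0.59 and −0.37). RAP1 had 0.08 and −0.27, IFH1 0.72 and 0.41, and FHL1 −0.43 and −0.44. Of 11 genes for translation elongation factors, 7 and 5 were above the genome median. HYP2, which encodes eIF5A, had the most negative difference (0.41 and −0.39) and YEF3 the most positive (−0.29 and −0.13). In the 0.5 kb before the start, 8 of the 11 were lower with BPS (72.7%, against 58.3% of protein-coding genes), with a median of −0.42. Of 50 genes for ribosome assembly factors, 29 and 26 were above the genome median, with medians of 0.19 and 0.10. Here 5 genes (10%) were lower and 3 (6%) higher by more than 0.5, against 4.84% and 7.59% of all genes, with PWP2 (1.20 and 0.27) and RLP24 (−0.87 and −0.19) at the extremes. The median difference before the start was −0.12 in this list, close to that of all protein-coding genes.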

How the data were processed

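The authors deposited 1 linear ratio per probe and array, normalized by a method the sources used here leave unnamed. The submitters' processing notes name Agilent Feature Extraction 9.5.1. On each array G1 DNA carried Cy5 and recovery DNA Cy3, per the labels, so dye bias stays in every level. Centring each array, done here, removes any difference in total breakage. Signal over background was not assessed, because no scanner intensities were used here, and 1 array per group limits the precision. The median ratios were 1.21 without and 1.23 with BPS. All 41480 probes were used.

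Ratios were converted to log2, centred on each array's median and averaged over gene windows with Python 3.11.15, numpy 2.4.6 and pandas 2.3.3. The steps were tested on simulated data. Names and places of genes were taken from a RefSeq gene table (assembly R64), and the strand from the systematic name. To check that this table lines up with the probes, 25 long frames named like those of Ty elements were counted: they held 2 probes in place, and 28 or 27 when moved 0.5 kb to lower or higher coordinates. Probes inside the gene were found for 130 of the 137 genes, at 3.08 per kb against 3.45 for protein-coding genes.

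The members, lists and tests were chosen with earlier results of these data known. Genes were named by fixed ranks: the 5 highest and lowest levels, the 5 most positive and negative differences, the 5 widest and 3 narrowest A and B contrasts, the RPP genes, and the extremes of the other lists. Some genes are not reported here. Genes named by role, chromosome or block, and the 0.5 kb before the start, were chosen after values were seen. Alternatives were other windows, scalings, centring, probe minimums and positions.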

Additional observations from a re-analysis of the deposited data

Results flagged for a closer look

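Ribosomal protein genes that lay on opposite sides of the genome median on the 2 arrays and differed by more than 0.5 log2 units deserve a closer look. With 1 array per group the difference was not tested. RPS25B went from below to above the median, with a difference of 1.08. The others went from above to below with BPS: RPL16B by −0.71, RPS21B by −0.65, RPS18B by −0.61, RPS2 by −0.59 and RPP1A by −0.58.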

How the results depend on the processing

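No paired analysis was possible because each group has 1 array, and no replicate could be left out. A minimum of 10 probes and leaving out genes within 20 kb of a chromosome end removed no member, so they test nothing here. Of the 137 values recomputed under the other settings, 131 stayed within the 95% binomial interval of the median or within 1.5 times the count, 6 moved and none turned in sign beyond that interval. The interval is over genes, some of which share probes, so it covers the spread between genes and not between replicates. The settings also reuse the same 2 arrays, so staying within it is a weak check. For some values the interval included 0, so a change of sign inside it was not counted. It ran from −0.07 to 0.44 without and from −0.20 to 0.34 with BPS for large minus small subunit. For the median difference it ran from −0.19 to 0.004. Probes inside the gene turned large minus small with BPS to −0.11. The median level ran from 0.23 to 0.34 without and from 0.11 to 0.19 with BPS, the median difference from −0.14 to −0.08, and the difference before the gene start, whose alternatives were chosen after seeing the data (as was leaving out single probes), from −0.32 to −0.20. Only the counts past 0.5 moved. Probes inside the gene, a median of 2, gave 8 genes higher and 17 lower with BPS, against 2 and 10. Division by the robust SD gave 19 lower by more than 0.5 robust SDs. Leaving out the 26 members that share probes left 6 of 111 lower, where 4.84% of all genes were. A threshold of 1 log2 unit left 1 higher and 0 lower.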

Other observations

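A tRNA gene lay within 2 kb of 5 ribosomal protein genes, which were RPL26A, RPL30, RPS7B, RPS25B and RPS27B. They include both genes higher with BPS by more than 0.5. Their differences were 0.16 at RPL26A, 0.12 at RPL30, −0.48 at RPS7B, 1.08 at RPS25B and 0.60 at RPS27B, a median of 0.16 against −0.10 for the 132 genes without such a neighbour. No matching value for all genes near a tRNA gene is given here, so whether such differences are usual there cannot be said. The part of tRNA genes in these values was not tested.

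The likeness of the copies of a pair was low both inside the genes, where their sequences are most similar, and around them. Over the 55 pairs with a probe inside both copies, r between A and B was 0.11 without and 0.13 with BPS inside the genes. In the flanks of all 59 pairs it was 0.10 and 0.08. The median absolute contrast was 0.42 and 0.55 inside and 0.33 and 0.63 in the flanks. No probe lay inside RPL1B, RPL29, RPL41A, RPL41B, RPS28B, RPS29A and RPS29B, so the values of these 7 genes rest on the flanks alone.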
